A study of Mus musculus with 30 samples.

Results

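Dimethylation of histone H3 at lysine 4 (H3K4me2) was mapped in cultured mouse RAG1-/- pro-B cells, and 3801 of the 26549 H3K4me2 peaks of these cells (14.3%) form the set described here. Each of the 3801 regions is a peak window of 1000 bp that overlapped no H3K4me2 peak of EBF-/- pre-pro-B cells, no H3K4me3 peak of RAG1-/- cells and no H3K4me1 peak of RAG1-/- cells, an overlap of 1 bp being enough to leave a peak out. The regions were therefore selected on the measured H3K4me1, H3K4me2 and H3K4me3 peaks, and their state in those 4 lists is a description and no result. RAG1-/- cells cannot rearrange their antigen receptor genes and stop at the pro-B stage. They were B220-enriched from femoral bone marrow of C57BL/6 mice, and a culture of 10 d in IL-7 and SCF followed. EBF-/- and E2A-/- cells stop earlier, at the pre-pro-B stage, are of the same strain, and were kept on a layer of S17 stroma that was fed IL-7, SCF and FLT3 ligand. Genotype and culture differ together, so in every comparison of RAG1-/- with EBF-/- or E2A-/- cells they cannot be told apart. E2A-/- cells and A12 cells, a T cell line without E2A, also served as carriers of E47-ER, full-length E2A joined to an estrogen receptor part and switched on with 1 µM tamoxifen for 1 or 6 h, or of bHLH-ER, a shortened counterpart. The data are 24 peak lists of 1 library each, 1 of them from a mock immunoprecipitation, and 6 RNA samples on arrays, 2 from each of RAG1-/-, EBF-/- and E2A-/- cells.

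H3K4me2 lies over promoters, where it comes with H3K4me3, and over distal elements, where it usually comes with H3K4me1, so a window with H3K4me2 alone is neither a typical promoter nor a typical enhancer. E2A and EBF1 are transcription factors that open and maintain the B cell programme, FOXO1 is a forkhead factor on which pro-B cells depend, and CTCF holds chromatin loops and boundaries. Acetylation of histone H3 at lysines 9 and 14 (H3K9/14ac) goes with active elements, and H3K27me3 is laid down by Polycomb complexes over silent developmental genes.

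The peaks were of modest size. The authors' score, a whole number per peak whose meaning the sources used here do not give, ran from 15 to 331 in the 3801 regions, with a median of 29 and quartiles of 20 and 49. The median over all 26549 H3K4me2 peaks was 59, and over the 10981 peaks with H3K4me3 it was 103. Peaks that were also new in RAG1-/- cells but overlapped an H3K4me1 peak (4366 peaks) had the same median, 29. No 2 starts within the H3K4me2 list of RAG1-/- cells lie closer than 2529 bp, nor within the H3K4me1 list closer than 2517 bp, so each list holds 1 window per local domain. Absence of an H3K4me1 peak is then a statement on where the windows fall, and a domain around a region may still carry the mark: 157 regions (4.13%) had an H3K4me1 peak of the same cells less than 1 kb away and 587 (15.4%) less than 5 kb away.

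The median gap to the nearest peak of the 3 excluding lists was 8.36 kb, and to the nearest H3K4me3 peak of RAG1-/- cells 34.6 kb. At the edge of the rule, 67 regions lay less than 100 bp from an excluding peak and had a median score of 63. A further 98 H3K4me2 peaks were left out for an overlap of 100 bp or less and had a median score of 61.5. These 2 sets also had like shares of H3K9/14ac peaks, 25.4% inside and 29.6% outside. The regions were scattered: 312 (8.21%) had another region within 10 kb and 1243 (32.7%) within 50 kb.

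E2A was the most frequent of the factors mapped. Of the 3801 regions, 671 (17.7%, exact 95% binomial interval 16.5 to 18.9) overlapped an E2A peak of RAG1-/- cells, 537 (14.1%, 13.0 to 15.3) a CTCF peak, 90 (2.37%, 1.91 to 2.90) an EBF1 peak and 69 (1.82%, 1.42 to 2.29) a FOXO1 peak. The intervals cover counting error only, and with 1 library per list no difference between sets of regions was tested over samples. Over all 26549 H3K4me2 peaks of RAG1-/- cells, 18.7% had E2A, 14.6% CTCF, 2.26% EBF1 and 1.96% FOXO1. The shares in the regions were near these, so they are not particular to the regions. Mock immunoprecipitation peaks lay in 3 regions (0.0789%). Seen from the factors, the regions held 686 of 11846 E2A peaks (5.79%), 90 of 1402 EBF1 peaks (6.42%), 72 of 1575 FOXO1 peaks (4.57%) and 550 of 38838 CTCF peaks (1.42%).

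E2A was the sole factor of the 4 at 506 regions and CTCF at 464, and 65 regions held both. Each factor was at a minor part of the regions, so few regions with both is no result by itself. E2A was at 12.1% of the regions with CTCF and at 18.6% of those without it. In new peaks with H3K4me1 these shares were 32.3% and 29.8%. In H3K4me2 peaks without H3K4me1 that EBF-/- cells shared they were 8.71% and 16.7%. The differences were not tested. EBF1 and FOXO1 mostly fell where E2A was: 62 of the 90 EBF1 regions (68.9%) and 55 of the 69 FOXO1 regions (79.7%) also had E2A. EBF1 and FOXO1 met at 7 regions, and all 7 also had E2A. None of the 4 factors was found at 2624 regions (69.0%), and 2321 (61.1%) had no factor, H3K9/14ac or H3K27me3 peak.

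The regions lay between 2 neighbouring classes in this respect. Among new H3K4me2 peaks with H3K4me1, 30.0% had E2A, 4.83% EBF1 and 7.88% CTCF. Among H3K4me2 peaks without H3K4me1 that EBF-/- cells shared (3598 peaks), 15.1% had E2A, 1.17% EBF1 and 20.1% CTCF. Among the 7004 H3K4me2 peaks found only in EBF-/- cells, and likewise without H3K4me1 or H3K4me3 there, 6.45% overlapped an E2A peak of RAG1-/- cells and 7.58% a CTCF peak. H3K27me3 was at 4.79% of the regions, at 0.389% of the new peaks with H3K4me1 and at 8.25% of the shared peaks without it.

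**Figure D1:**
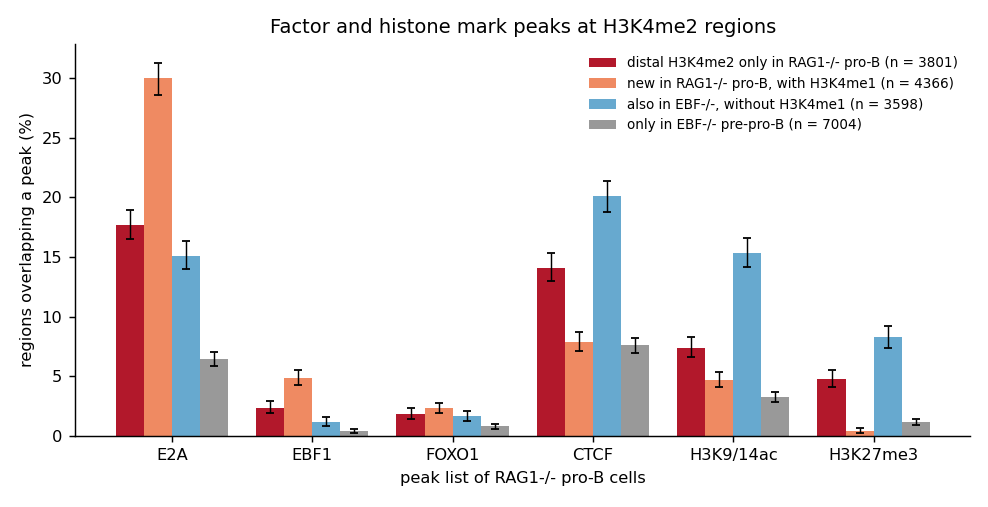
Share of regions (%, bars with exact 95% binomial intervals) that overlap a peak of each RAG1-/- list, for 4 classes of H3K4me2 region. In the regions found only in pro-B cells without H3K4me1, E2A (17.7%) and CTCF (14.1%) are near each other, whereas in new regions with H3K4me1 the shares are 30.0% and 7.88%.

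Peaks of E2A, EBF1 and FOXO1 and of acetylation were more frequent at higher H3K4me2 scores, and those of CTCF and H3K27me3 were not. E2A was at 5.04% of the 1032 regions with scores of 15 to 20, at 9.31% of the 881 with 21 to 29, at 22.3% of the 978 with 30 to 49 and at 35.1% of the 910 with 50 or more. The H3K9/14ac shares in the same bands were 0.969%, 2.04%, 5.11% and 22.3%, and EBF1 was at 0.0969% in the lowest band and 6.37% in the highest. CTCF was at 15.2%, 17.9%, 11.8% and 11.8%, and H3K27me3 at 6.78% in the lowest band and 2.53% in the highest. In new peaks with H3K4me1 the E2A shares over the same bands (the last one reaching 167) were 20.1%, 25.0%, 35.2% and 41.2%, above the regions in each band. Both the marks and the factors were called against thresholds in libraries of unstated depth, and the part of the thresholds in these shares was not tested.

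**Figure D2:**
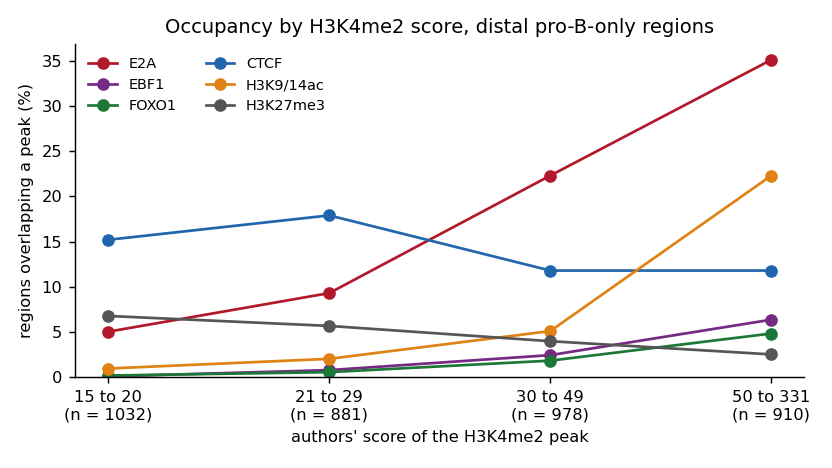
Share of the 3801 regions that overlap a peak of each RAG1-/- list (vertical axis, %) in 4 bands of the authors' H3K4me2 score (horizontal axis). The E2A line rises from 5.04% to 35.1% and the H3K9/14ac line from 0.969% to 22.3%, while CTCF stays between 11.8% and 17.9%.

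Factor peaks gathered at the centres of the regions. Of 633 E2A peaks centred within 500 bp of a region's centre, the median distance was 158 bp and 70.0% lay within 250 bp. The 519 CTCF peaks were set farther out, with a median of 203 bp and 60.9% within 250 bp. EBF1 (82 peaks, median 145.5 bp) and FOXO1 (68 peaks, median 134 bp) lay at like distances to E2A. In new peaks with H3K4me1 the median was 136 bp for E2A, with 77.8% within 250 bp. For CTCF it was 255 bp there, with 49.0% within 250 bp. Central E2A peaks are therefore not particular to the regions. There were 117 E2A peaks per 1000 regions in the innermost 250 bp on both sides, and between 4.74 and 10.0 in each step of 250 bp from 1 to 3 kb.

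**Figure D3:**
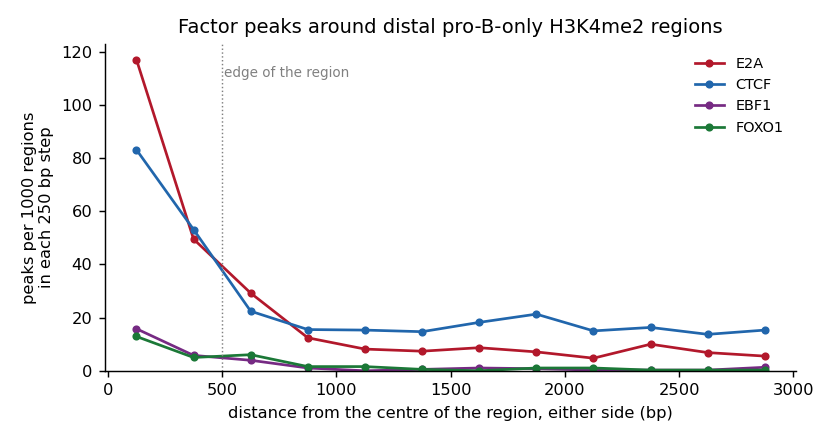
Peaks of E2A, CTCF, EBF1 and FOXO1 per 1000 regions in steps of 250 bp from the centre of the region (horizontal axis, bp, both sides together), with the edge of the window dotted. E2A falls from 117 in the innermost step to between 4.74 and 10.0 beyond 1 kb.

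Acetylation was rare. H3K9/14ac peaks of RAG1-/- cells overlapped 281 regions (7.39%, 6.58 to 8.27), against 4.67% of new peaks with H3K4me1, 15.3% of shared peaks without it and 86.8% of peaks with H3K4me3. With only the upper 50% of the acetylation peaks by score, 0.895% of the regions had one. EBF-/- cells had an H3K9/14ac peak at 103 regions (2.71%): 238 regions were acetylated in RAG1-/- cells only, 43 in both cells and 60 in EBF-/- cells only. Regions with E2A were acetylated in 14.9% of cases and regions without it in 5.78%. The share was 5.59% at CTCF regions, 22.2% at EBF1 regions and 26.1% at FOXO1 regions. The median H3K4me2 score was 48 at E2A regions, 26 at regions without E2A and 68 at acetylated regions, so these shares move with the score.

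H3K27me3 and the B cell factors hardly met. H3K27me3 lay at 182 regions, of which 2 had E2A, 1 had EBF1 and none FOXO1. Only 0.298% of E2A regions had H3K27me3, against 6.25% of the regions with none of the 4 factors. The median score was 22.5 at H3K27me3 regions and 48 at E2A regions, and the part of the score was not tested. The same 2 shares were 0.368% and 10.5% in shared peaks without H3K4me1. In new peaks with H3K4me1 they were 0 of 1308 and 0.441%, so this is not particular to the regions. H3K27me3 was in RAG1-/- cells only at 168 regions, in both cells at 14 and in EBF-/- cells only at 23. The H3K27me3 lists differ in length, 2130 peaks in RAG1-/- and 1311 in EBF-/- cells. Both H3K9/14ac and H3K27me3 peaks were found at 12 regions.

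Most E2A peaks at the regions had no counterpart in earlier cells. Of the 671 E2A regions, 63 (9.39%) had an E2A peak in EBF-/- cells, 205 (30.6%) in E2A-/- cells 1 h after E47-ER was switched on, 137 (20.4%) at 6 h and 140 (20.9%) in A12 cells with E47-ER. Taking EBF-/- and E47-ER cells of E2A-/- origin together, 223 (33.2%) had a peak in at least 1 of them. This share was 24.8% among new peaks with H3K4me1 and E2A, and 60.8% among shared peaks with E2A and without H3K4me1. A low share is therefore not particular to the regions. The regions and the new peaks were selected for no H3K4me2 peak in EBF-/- cells, and the shared peaks for having one. The part of this selection in the shares was not tested. Regions without E2A in RAG1-/- cells overlapped the E47-ER peaks of 1 h in 6.93% of cases and those of 6 h in 3.19%. The E47-ER lists held 26792 and 15386 peaks, and the EBF-/- list 4531. H3K4me1, left out by the rule in RAG1-/- cells, lay at 73 regions (1.92%) in EBF-/- cells and at 224 (5.89%), 307 (8.08%) and 168 (4.42%) in E2A-/- cells with bHLH-ER, E47-ER for 1 h and E47-ER for 6 h.

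The 7 regions with E2A, EBF1 and FOXO1 together show the most occupied end of the set, and all coordinates are of build mm8. None of the 7 had an E2A peak in EBF-/- cells, in E47-ER cells of E2A-/- origin or in A12 cells, and none had H3K27me3. Those at chr19:25382877-25383876 (score 73) and chr13:41437785-41438784 (score 62) were acetylated. Their nearest array probes belonged to Kank1, a regulator of the actin cytoskeleton, 92.8 kb away, and Nedd9, a scaffold of integrin signalling, 116 kb away. The region at chr3:14655845-14656844 (score 64) also had CTCF and lay 18.0 kb from the probe of Car13, a carbonic anhydrase. The region at chr8:122967403-122968402 (score 78) lay 0.468 kb from the probe of Zdhhc7, a palmitoyl transferase. The others were at chr15:91461484-91462483 (score 77, nearest probe 4933438A12Rik at 34.4 kb), chr1:108144147-108145146 (score 58, Phlpp1 at 76.7 kb) and chr5:141053988-141054987 (score 44, Gna12 at 41.8 kb). Phlpp1 encodes a phosphatase that acts on AKT, and Gna12 a G protein subunit.

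The densest stretch of the set was a row of CTCF sites in the clustered protocadherins, cell adhesion genes whose promoter choice uses CTCF. On chromosome 18, 6 regions lay between 37832811 and 37888245, nearest to probes of Pcdhga7, Pcdhga9, Pcdhga12 and Pcdhgb4. All 6 had a CTCF peak, none had E2A, EBF1, FOXO1, H3K9/14ac or H3K27me3, and their scores were low, 16 to 23. Over the whole cluster there were 8 regions, 7 of them with CTCF, beside 3 shared peaks without H3K4me1 and no new peak with it. Of 32 clustered protocadherin genes on the array 9 passed the signal filter, and 5 of these were higher in RAG1-/- than EBF-/- RNA and none lower (median log2 change 1.99), where 21.3% and 22.7% of all genes were called higher and lower. A gene bright in the RAG1-/- samples alone passes the signal filter and can hardly be called lower. The part of the filter in these counts was not tested, so they say little about the stretch. This stretch and the following one were singled out after their values were seen. At the immunoglobulin heavy-chain genes on chromosome 12, between the probes of Tmem121 and Zfp386, 4 regions were found, and 3 had E2A. The 1 at chr12:114630197-114631196, 6.35 kb from the probe of Ighv14-4, had E2A and EBF1 and a score of 66.

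RNA was used to ask whether the genes beside the regions differ between the cells. Values are normalised log2 intensities of the array probes, and a change is the limma log2 difference with its standard error (SE, n = 2 samples a group) and Benjamini-Hochberg adjusted p over 12672 genes, called at 0.05. No label says that the 2 samples of a group came from separate animals or cultures, so p-values may measure technical spread. The 2 RAG1-/- samples differed from each other in Kdm5d, Mpo and Cpa3 (values below), so their spread is unlikely to be technical alone. Of the 11 pro-B markers 10 passed the signal filter, and all 10 were well above background in both RAG1-/- samples. Their summed level was 19.46 and 19.34 in RAG1-/-, 14.17 and 14.10 in EBF-/- and 13.90 and 12.15 in E2A-/- samples. Rag1, the gene deleted in RAG1-/- cells, read 10.54 and 11.12 in RAG1-/-, 9.79 and 9.58 in EBF-/- and 5.58 and 4.41 in E2A-/- samples, and was well above background in all RAG1-/- and EBF-/- samples. Its change against EBF-/- was 1.16 (SE 0.27, adjusted p = 0.0281), a call lost without any 1 of the 4 samples compared. Whether its probe lies in the deleted part is not known here, so the Rag1 signal is no check of the label, and RAG1-/- stands for the libraries labelled so. RNA samples also differed in other ways. Myeloid markers (5 of 5 kept) summed to 11.81 in RAG1-/- replicate 1 and 15.56 in replicate 2. Mpo (9.15 and 14.59) and Lyz2 (11.08 and 14.49) made most of that gap, Cebpa (5.47 and 6.62) moved the same way, Csf1r read 7.67 and 7.76, and Itgam was the lower in replicate 2 (9.25 and 7.96). Mast cell markers (2 of 5 kept) summed to 6.56 and 10.74, with Cpa3 at 4.95 and 10.53. E2A-/- replicate 1, which shared an array with RAG1-/- replicate 1, had the higher pro-B sum of its pair. Kdm5d, a Y-linked gene, read 8.53 and 3.58 in RAG1-/-, 8.98 and 9.07 in EBF-/- and 3.89 and 4.71 in E2A-/- samples. Counts without each sample are given beside the results they change, and the part of these features was not tested further.

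A named array probe lay within 50 kb of 2640 of the 3801 regions (69.5%), and these regions had 2299 nearest genes. Of these, 1531 passed the signal filter. The filter also keeps a gene bright in both samples of 1 group alone. Such a gene can be called higher in that group but hardly lower. The part of the filter in the shares below was not tested, and all 12672 genes passed the same filter. In RAG1-/- against EBF-/- RNA, 381 of the 1531 genes (24.9%) were higher and 369 (24.1%) lower, where 21.3% and 22.7% of all 12672 genes were called higher and lower. The median change was 0.05 near the regions and 0.04 over all genes, so taken as one set the neighbours were close to the background. Against E2A-/- RNA, which shares the RAG1-/- samples, 396 (25.9%) were higher and 378 (24.7%) lower, beside 22.9% and 23.1% of all genes. Genes near new peaks with H3K4me1 were higher in 26.5% of cases against EBF-/-, those near shared peaks without it in 21.1%. Genes near H3K4me2 peaks of EBF-/- cells alone were higher in 21.5% and lower in 28.7%. Leaving out EBF-/- replicate 1 or 2 reduced the 381 higher genes to 182 and 200 and the 369 lower ones to 182 and 197, with 8.49% and 9.15% of all genes higher and 9.89% and 10.6% lower. Leaving out E2A-/- replicate 2 took the 378 lower genes to 245 (16.0%), beside 13.2% of all genes.

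The neighbours differed with what lay at the region. Near the 671 E2A regions, 113 of 314 genes (36.0%) were higher in RAG1-/- than in EBF-/- RNA and 66 (21.0%) lower, with a median change of 0.27. Near regions without E2A, 297 of 1288 genes (23.1%) were higher and 322 (25.0%) lower, with a median of 0.03, a gene with regions of both kinds being in both groups. Among regions scoring 30 or more the shares of higher genes were 36.4% with E2A and 24.4% without, and among those below 30 they were 29.4% and 21.8%. Against E2A-/- RNA 116 of the 314 (36.9%) were higher and 64 (20.4%) lower. Without EBF-/- replicate 1 or 2, 63 of the 314 genes were higher in both cases (20.1%), and 38 (12.1%) or 42 (13.4%) were lower, with the shares of all genes given above. Without E2A-/- replicate 2, 40 (12.7%) were lower than in E2A-/- RNA, beside 13.2% of all genes. The neighbouring classes had the same order. For new peaks with H3K4me1, 29.8% of genes near E2A-bearing peaks and 25.8% of genes near the others were higher, and for shared peaks without H3K4me1 the shares were 29.8% and 19.6%.

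Regions with at least 2 of E2A, EBF1 and FOXO1 had the highest share. Near these 110 regions, 23 of 47 genes (48.9%) were higher and 7 (14.9%) lower against EBF-/- RNA, with a median change of 0.94, and without EBF-/- replicate 2, an alternative for these regions added after seeing the data, the counts were 16 (34.0%) and 3 (6.38%), beside 9.15% and 10.6% of all genes. The corresponding share of higher genes was 31.2% for new peaks with H3K4me1 (93 genes) and 30.8% for shared peaks without it (39 genes). Among the 23 higher genes near the 110 regions, Car13, Rarres1, Tmem132e, Kcnf1, Esrrb, Ptpn14, Cpne9 and Ppp1r32 passed the signal filter through the RAG1-/- samples alone. They could hardly have been called lower. The median H3K4me2 score was 57.5 at the 110 regions and 29 over all regions. The parts of the filter and the score were not tested. At the other end, 6 of 64 genes near H3K27me3 regions (9.38%) were higher and 20 (31.2%) lower, with a median of -0.15. These 64 are the genes that passed the signal filter of 135 nearest genes, beside 1531 of 2299 for the whole set. A gene dim in RAG1-/- samples passed only through the EBF-/- or E2A-/- samples. If it passed through EBF-/- samples it could hardly be called higher, and the part of the filter was not tested. Genes near regions with CTCF and none of the other 3 factors were higher in 23.5% and lower in 27.6% of 217 cases, those near regions with no factor or mark in 24.1% and 24.3% of 964. Acetylation at the region went with 24.6% higher and 20.4% lower of 167 genes. These differences between groups of genes were not tested.

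**Figure D4:**
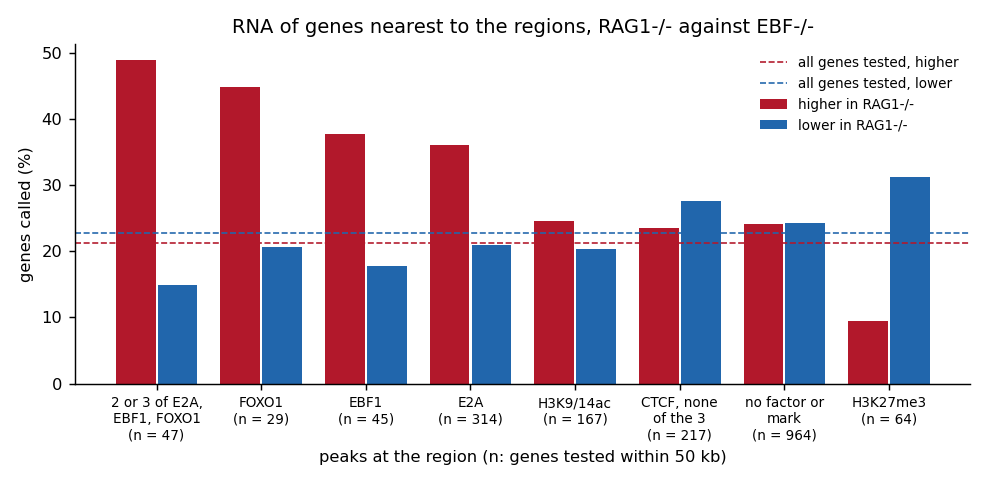
Share of the tested genes nearest to a region within 50 kb that were called higher (red) or lower (blue) in RAG1-/- than in EBF-/- RNA (vertical axis, %), by the peaks at the region (horizontal axis, with the number of genes tested); dashed lines give all genes. Genes beside regions with 2 or 3 of the B cell factors were higher in 48.9% of cases, those beside H3K27me3 regions in 9.38%.

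Of all 20704 genes placed on the array, 2299 (11.1%) had a region within 50 kb. Among the regulators of the B lineage, 8 of 19 list genes on the array had one, and 7 of these 8 were higher in RAG1-/- than in EBF-/- RNA and none lower. In the list as a whole, 16 of 19 were higher, so its neighbours are not set apart by having a region. New peaks with H3K4me1 (2468 nearest genes) had 7 genes of the list within 50 kb. Peaks found only in EBF-/- cells (3779 nearest genes) had 12, so nearness to these regulators is not particular to the regions. Irf4, a transcription factor of late pro-B and pre-B cells, had an E2A region with a score of 86 at 5.30 kb. It read 12.03 and 11.23 in RAG1-/-, 6.65 and 6.30 in EBF-/- and 6.64 and 4.61 in E2A-/- samples, and the RAG1-/- samples were above all others. Its change against EBF-/- was 5.18 (SE 0.70, adjusted p = 0.00607). Ikzf3, which encodes Aiolos, had 2 regions without factor peaks, the nearer at 0.725 kb, and rose by 2.83 (SE 0.24, adjusted p = 0.00194). Ets1 rose by 2.20 (SE 0.50, adjusted p = 0.0251) with 1 region at 33.9 kb, and that call was lost without RAG1-/- replicate 1 or EBF-/- replicate 1. Irf8, with 2 regions of which 1 had E2A and 1 CTCF, changed by 1.07 (SE 0.19, adjusted p = 0.0132), a call lost without either EBF-/- replicate.

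Tcf3, Ebf1 and Tcf12 were near the threshold. Tcf3, the gene of E2A, read 14.99 and 14.70 in RAG1-/-, 13.41 and 13.39 in EBF-/- and 10.80 and 9.44 in E2A-/- samples. It changed by 1.47 (SE 0.42, adjusted p = 0.0489) against EBF-/-, and had 1 region at 30.2 kb. Ebf1 had 4 regions between 44749709 and 44845721 on chromosome 11, 1 of them with E2A and 1 within 50 kb of its probe, at 3.09 kb. It read 12.56 and 12.39 in RAG1-/-, 10.86 and 10.89 in EBF-/- and 6.95 and 5.39 in E2A-/- samples, a change of 1.62 (SE 0.47, adjusted p = 0.0494) against EBF-/-. Against E2A-/- RNA, Tcf3 changed by 4.73 (SE 0.43, adjusted p = 0.00199), and both E2A-/- samples were still well above background. Ebf1 was well above background in both EBF-/- samples. The place of the 2 probes relative to the deleted parts is not known here. Tcf12, which encodes the E2A partner HEB and had 3 regions, changed by 0.34 (SE 0.09, adjusted p = 0.0431). Without EBF-/- replicate 1 or 2 none of these 3 genes was called. The calls for Tcf3 and Ebf1 were also lost without RAG1-/- replicate 1, and that for Tcf12 without RAG1-/- replicate 2 or either E2A-/- replicate. Ikzf1, which encodes Ikaros, had 1 region at 34.7 kb and a change of -0.84 (SE 0.48, adjusted p = 0.223). It was called without RAG1-/- replicate 1, at -1.72.

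Of B cell surface genes 6 of 16 had a region, of pre-B receptor and signalling genes 1 of 17, and of recombination genes 1 of 13, beside the 11.1% of all genes. Near new peaks with H3K4me1 these 3 counts were 3, 1 and 2, and near peaks found only in EBF-/- cells 4, 8 and 4. Blnk, the adaptor that links the pre-B receptor to its kinases, had an E2A region at 34.8 kb and read 17.93 and 17.82 in RAG1-/- samples, above 10.92 and 10.98 in EBF-/- samples. Its change was 6.94 (SE 0.37, adjusted p = 0.000798), and 12 of the 16 tested genes of its list were higher. Fcrla, a B cell Fc receptor-like protein, had an E2A region at 16.5 kb and rose by 4.97 (SE 0.62, adjusted p = 0.00481). Cd22, an inhibitory co-receptor with a CTCF region at 3.45 kb, was well above background in neither EBF-/- sample and was at least 21.1-fold higher (adjusted p = 0.0249). That call was lost without either EBF-/- replicate or RAG1-/- replicate 1. Cd9, a tetraspanin with 2 regions, changed by 0.79 (adjusted p = 0.0160), and was not called without either EBF-/- replicate. Cd40 and Cd55 were at 1.22 and 0.79 (adjusted p = 0.238 and 0.180), and Cr2 did not pass the signal filter. Lig4, the ligase of end joining, had 1 region without factors at 41.7 kb and rose by 4.17 (SE 0.15, adjusted p = 0.000447).

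Of the genes of other lineages, 4 of 14 NK and cytotoxic genes had a region (Gzma, Id2, Klrb1c and Tyrobp), and all 4 were lower, as were all 11 tested genes of that list. A region was also near 2 of 16 T-lineage genes (Cd28 and Thy1), 2 of 8 stromal genes (Col1a2 and Sparc) and 2 of 16 progenitor genes (Flt3 and Il7r), and near none of the myeloid, mast cell and erythroid list genes. Of 18 FOXO and IL-7 receptor target genes 3 had a region (Bcl2, Bcl2l11 and Il7r), and 2 of these 3 were lower. In that list as a whole 7 of 17 tested genes were higher and 5 lower, beside 21.3% and 22.7% of all genes.

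The 12 highest fitted differences against EBF-/- among genes whose samples did not overlap were those of Alpl, Pde2a, Foxc1, Car13, Ttll11, Lgr5, Car2, Cpm, Rarres1, Tmem132e, Tenm4 and Blnk. For 10 of them, all but Car2 and Blnk, neither EBF-/- sample was well above background, so the size is a bound and their order has no meaning. Pde2a, a cyclic nucleotide phosphodiesterase, read 14.17 and 14.25 in RAG1-/- and 5.81 and 4.15 in EBF-/- samples, at least 357-fold higher (adjusted p = 0.00189), beside an E2A region at 22.3 kb. Foxc1, a forkhead transcription factor, had an E2A region at 19.0 kb and read 14.10 and 13.54 in RAG1-/-, 5.15 and 4.21 in EBF-/- and 8.44 and 8.48 in E2A-/- samples. It was at least 273-fold higher than in EBF-/- (adjusted p = 0.00055). Alpl, alkaline phosphatase, was at least 234-fold higher (adjusted p = 0.00386) beside a region without factor peaks at 32.1 kb. Car13, beside the region with all 3 B cell factors and CTCF, read 12.04 and 12.37 in RAG1-/- and 3.29 and 3.35 in EBF-/- samples, at least 89.2-fold higher (adjusted p = 0.00333). Ttll11 and Tenm4 (at least 87.6-fold and 43.1-fold) and Cpm and Lgr5 (67.5-fold and 34.8-fold) were beside regions without a factor peak. Rarres1 (at least 26.2-fold) had E2A and FOXO1 at its region, and Tmem132e (at least 22.2-fold) had 2 regions, with E2A and EBF1 peaks among them. Car2 rose by 7.66 (SE 1.52, adjusted p = 0.0173), a call lost without RAG1-/- replicate 1 or EBF-/- replicate 1.

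Among genes well above background in all 4 samples compared, a ranking added after seeing the data, the 12 largest rises were Blnk, Dpp4, Gpat3, Gnb4, Epha2, Irf4, Ift43, Glcci1, Tgfb3, Fcrla, Chchd10 and Tnfrsf13c. Of these, 6 had E2A at a region within 50 kb, beside 314 of the 1531 tested genes near the regions, and the difference was not tested. Dpp4, a cell surface peptidase, read 14.38 and 14.15 in RAG1-/-, 8.41 and 6.88 in EBF-/- and 12.84 and 12.67 in E2A-/- samples, a change of 6.61 against EBF-/- (SE 0.44, adjusted p = 0.00124) beside an acetylated region with a score of 110 at 35.8 kb. Gpat3, an acyltransferase of lipid synthesis, read 13.91 and 13.79 in RAG1-/- and 7.66 and 7.59 in EBF-/- samples. Its change was 6.23 (SE 0.17, adjusted p = 0.000382), beside an acetylated E2A region at 22.8 kb. Tgfb3, a growth factor of the TGF-beta family, changed by 4.99 (SE 0.48, adjusted p = 0.00258) beside a region without factor peaks and with a score of 122. The call for Gnb4 was lost without EBF-/- replicate 1, and that for Ift43 without EBF-/- replicate 1 or RAG1-/- replicate 1.

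The 12 lowest fitted differences were those of Pdcd1, Nrp2, Ccl5, Tnni1, Runx2, Cd28, Nrgn, Flt3, Pacsin1, Trnp1, Adam11 and Wnt10a. For Cd28, Trnp1 and Wnt10a neither RAG1-/- sample was well above background, so these 3 have a bound and no rank. None of the 12 had EBF1 or FOXO1 at a region within 50 kb, and 1, Pacsin1, had E2A. CTCF was at a region of Nrp2, Pacsin1, Trnp1 and Adam11, and Adam11's region also had H3K27me3. Of the 1531 tested genes near the regions, 314 had E2A at one, 249 CTCF, 64 H3K27me3, 45 EBF1 and 29 FOXO1. Counts in 12 genes are too small to set against these, and no difference was tested. Flt3, the receptor of a progenitor growth factor, had a region with a score of 16 at 4.23 kb. It read 7.30 and 6.92 in RAG1-/-, 12.50 and 12.86 in EBF-/- and 13.50 and 13.68 in E2A-/- samples, a change of -5.57 against EBF-/- (SE 0.10, adjusted p = 0.000382). The pre-pro-B cultures, unlike the RAG1-/- one, held FLT3 ligand. Runx2, a transcription factor of bone and lymphoid progenitors, changed by -5.90 (SE 0.11, adjusted p = 0.000382) and Ccl5, a chemokine of T and NK cells, by -6.41 (SE 0.16, adjusted p = 0.000382). Cd28, the T cell co-stimulator, was well above background in neither RAG1-/- sample and was at least 31.9-fold lower (adjusted p = 0.000441). Trnp1 and Wnt10a were at least 16.1-fold and 18.3-fold lower. Pdcd1, the gene of PD-1, changed by -7.43 (SE 0.90, adjusted p = 0.00449), with 1 RAG1-/- sample well above background. Among genes well above background in all 4 samples the 12 largest falls were Ccl5, Tnni1, Runx2, Nrgn, Flt3, Pacsin1, Adam11, Tyrobp, Tns1, Cst7, Tmem51 and Slc49a4. For 3 of these (Pacsin1, Tyrobp and Cst7) a region had E2A, beside the 314 of 1531 tested genes above. Tyrobp, a signalling adaptor of NK and myeloid cells, read 10.69 and 10.96 in RAG1-/- and 15.67 and 15.72 in EBF-/- samples, a change of -4.87 (SE 0.11, adjusted p = 0.000382).

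**Figure D5:**
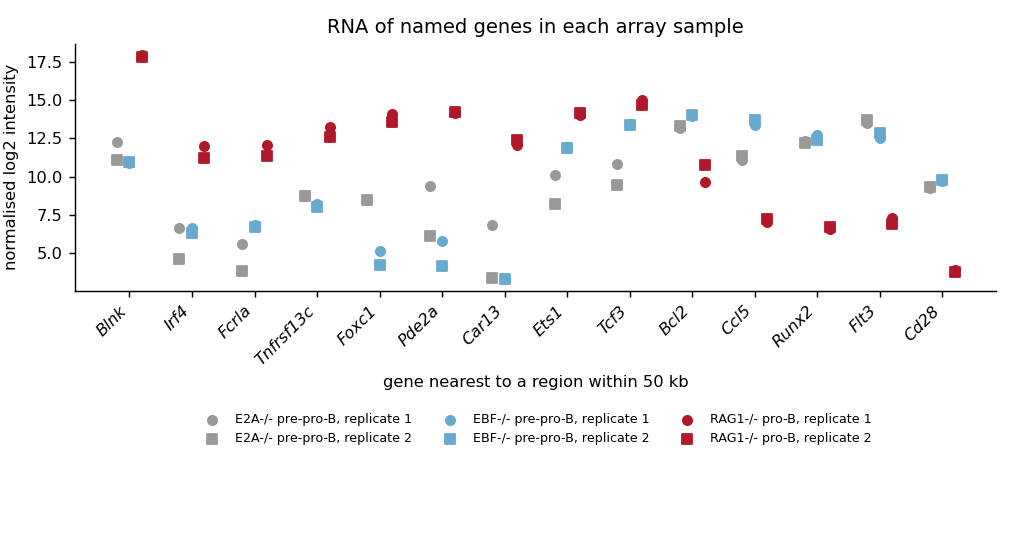
Normalised log2 intensity (vertical axis) of 14 genes nearest to a region within 50 kb in each of the 6 array samples, by cell and replicate. For Blnk, Irf4 and Foxc1 both RAG1-/- samples lie above all others, and for Flt3, Runx2 and Cd28 below.

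The following genes beside regions with E2A were chosen after their values were seen. Tnfrsf13c, the gene of the BAFF receptor, had 2 regions, the nearest at 3.19 kb and 1 of them with E2A and EBF1, and changed by 4.82 (adjusted p = 0.000748) against EBF-/- and 4.18 (adjusted p = 0.000812) against E2A-/- RNA. Acp6, a lysophosphatidic acid phosphatase, had a region with E2A and EBF1 and a score of 103 at 9.41 kb and changed by 2.54 (adjusted p = 0.000441). E2f8, a cell cycle repressor, had 2 regions with E2A and FOXO1 peaks among them and changed by 1.89 (adjusted p = 0.0138). Going the other way, Bcl2, the survival gene, had 3 regions within 50 kb, 2 with E2A, 1 with EBF1 and 1 with H3K9/14ac. It read 9.65 and 10.75 in RAG1-/-, 13.97 and 14.05 in EBF-/- and 13.15 and 13.31 in E2A-/- samples, a change of -3.82 (SE 0.34, adjusted p = 0.00225). Stard10, a lipid transfer protein, had 2 E2A regions and changed by -1.43 (adjusted p = 0.00259). Of the genes beside the 7 regions with all 3 factors, Kank1 changed by 4.75 (adjusted p = 0.00110), Nedd9 by 4.14 (adjusted p = 0.00134) and Zdhhc7 by 1.05 (adjusted p = 0.00303). The probes of Kank1, Nedd9 and Phlpp1 lie beyond 50 kb. Phlpp1 and Gna12 were at -0.22 and -0.31 (adjusted p = 0.508 and 0.0944).

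Few genes had many regions: 2007 had 1, 245 had 2 and 47 had 3 or more within 50 kb. The share higher against EBF-/- was 24.5%, 26.3% and 31.6% of 1314, 179 and 38 tested genes. Rpn1, a subunit of the oligosaccharyl transferase, and Sh3bgrl2 had 4 each. Sh3bgrl2, of the SH3BGR family, rose by 3.97 (SE 0.41, adjusted p = 0.00297), and Rpn1 was at -0.17 (adjusted p = 0.193). Another 45 genes, Tcf12 and Bcl2 among them, had 3 each. The 8 described next, with Bcl2 above as 1 of them, are the first of these 45 in alphabetical order, and 3 of the 8 did not pass the signal filter (5830417A05Rik, Bdkrb2 and Cblb). Bcr, the breakpoint cluster region gene, had E2A at all 3 of its regions. It was at 0.03 (adjusted p = 0.795) against EBF-/- and 1.21 (SE 0.09, adjusted p = 0.00129) against E2A-/- RNA. Agpat4, an enzyme of phospholipid synthesis, was at 3.86 (adjusted p = 0.0525) and 6.84 (adjusted p = 0.0106), and was called against EBF-/- without either E2A-/- replicate. Ahdc1 changed by -1.21 (adjusted p = 0.00693) against EBF-/-, a call lost without either EBF-/- replicate, and Cep57l1 was at 0.29 (adjusted p = 0.149), called without RAG1-/- replicate 2.

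Neither Foxo1 nor Ctcf had a region within 50 kb. Against EBF-/- RNA the change of Foxo1 was 5.58 (SE 0.44, adjusted p = 0.00174). That of Ctcf was 0.77 (SE 0.09, adjusted p = 0.00424). Of the 18 writers, cofactors and erasers of H3K4 methylation tested, 2 were higher (Rbbp5 and Men1) and 3 lower (Setd1b, Setd7 and Kdm5b), with a median of -0.12, where 21.3% and 22.7% of all genes were called higher and lower. The largest called change was that of Kdm5b, a demethylase of H3K4me3 and H3K4me2, at -2.83 (SE 0.12, adjusted p = 0.000571). It read 7.57 and 7.46 in RAG1-/- and 10.21 and 10.48 in EBF-/- samples. The calls for Setd1b, Setd7, Men1 and Rbbp5 were lost without either EBF-/- replicate. That for Rbbp5 was also lost without either E2A-/- replicate or RAG1-/- replicate 1. Setd1a, the single gene of this list with a region within 50 kb, was at -0.18 (adjusted p = 0.148).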

How the data were processed

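Peaks were called with HOMER on build mm8, per the submitters' processing notes. The authors deposited 1 list per library, with windows of 1 fixed width (1000 bp for histone marks, 200 bp for E2A, EBF1 and CTCF, 76 bp for FOXO1) and a whole-number score per peak. Read depths are not known here. Overlap meant 1 bp or more. Regions, gene lists and rules were chosen with earlier results of these data known.

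Arrays were read with Agilent Feature Extraction 9.5.3.1, and the deposited intensities are its processed signals of 2-colour arrays, background-subtracted and dye-normalized per the file headers. The 6 channels, on 4 arrays, were assigned by dye. Between 40.9% and 61.8% of spots were well above background. Log2 signals were quantile normalized. A probe was kept if both samples of some group had it well above background (22133 of 41099), and the brightest stood for its gene (12672 genes, 5179 with other kept probes). Names were updated through RefSeq, GRCm38.p6, for 33046 of 41174 probes. Group and dye were the terms of 1 limma fit of all 6 samples (version 3.58.1, R 4.3.3), with array as a random block (correlation -0.037) and Benjamini-Hochberg adjustment. The self-test ran on simulated data. A gene dim in both samples of a group has a bound ("at least"), set against the lowest signal well above background per sample or the probe's own if higher. Replicates correlated at 0.977 to 0.989. The nearest gene is the nearest named probe to a region's centre. Summed markers are log2 of summed signals.

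Named genes were the nearest genes of regions with E2A, EBF1 and FOXO1, the 12 largest rises and falls within 50 kb, the 10 genes with most regions (ties in alphabetical order), genes of 4 B cell lists with a region, the factors, Rag1 and the H3K4 enzymes, and, added after seeing the data, the 12 largest rises and falls among genes well above background in all 4 samples. Alternatives covered overlap, scores, distance, normalization, filter, probes, dye, array, replicate block and each sample left out. No sequence of mm8 was used here.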

Additional observations from a re-analysis of the deposited data

How the results depend on the processing

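The number of regions was 5035 when 500 bp of a peak had to be covered to leave it out, 3387 with a 1 kb margin and 640 within the upper 50% of H3K4me2 peaks by score (ties in file order). The E2A share was 16.3% when the peak's centre had to lie in the region, 20.1% when 500 bp away counted and 10.9% with the upper 50% of E2A peaks. With that limit on their own lists EBF1 was 1.18%, FOXO1 1.10%, CTCF 9.13% and H3K9/14ac 0.895%. With 500 bp allowed FOXO1 was 2.47%, CTCF 17.0% and H3K9/14ac 9.34%. H3K9/14ac was 6.08% by centre and 6.52% with the 1 kb margin. In the upper 50% of H3K4me2 peaks, an alternative added after seeing the data, the shares were 36.7% for E2A, 6.88% for EBF1, 5.16% for FOXO1, 11.2% for CTCF and 27.2% for H3K9/14ac. The other region shares moved by less than their interval.

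Within 20 kb, with 1032 genes tested, 242 genes were higher than in EBF-/- and 258 higher than in E2A-/- RNA. Leaving out 1 array sample at a time gave 182 to 368 higher and 182 to 408 lower genes against EBF-/-, and 274 to 404 higher and 245 to 430 lower against E2A-/-. For genes near E2A regions, an alternative added after seeing the data, the ranges were 63 to 112 and 38 to 72 against EBF-/-, and 84 to 123 and 40 to 71 against E2A-/-. The other array settings kept these counts within 1.5 times. Without the filter on dim probes 13.4% of 2299 near genes and 10.4% of all genes were higher than in EBF-/-. With the replicate block, 443 genes were higher and 451 lower than in EBF-/-, and 451 and 464 than in E2A-/-. The labels share replicate numbers but do not pair the samples: deviations of same-numbered samples correlated at -0.40, 0.16 and 0.01, so the block shows a shared number only. Of 85 named genes 59 kept their side of the threshold in all 13 array settings, and no called gene changed sign. Calls were lost for Tcf3, Ebf1, Rag1, Tcf12, Ets1, Cd22 and Men1 without the filter on dim probes, for Rag1 also without the dye term, for Ebf1 also with centring on the 75th percentile, for Tcf12 also with normexp, without the dye term and with the mean of probes, and for Setd7 with that mean. Score thresholds limit what counts as a region, and 2 samples a group limit the RNA calls.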
